A study of Mus musculus with 20 samples.

Results

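Kupffer cells, the resident macrophages of the liver, were followed through 10 genes that mark their identity: Clec4f, Vsig4, Timd4, Marco, Cd163, Cd5l, C1qa, C1qb, C1qc and Adgre1. The members were chosen by name, as the rows of the deposited expression table that carry these gene names, and all 10 were found among 54532 rows. They and the gene lists set beside them were chosen with earlier results of these data known. Their counts beside the shares of all genes are therefore descriptions. Polyadenylated RNA of whole mouse liver had been sequenced in 4 groups of 5 libraries, in a series that asks how loss of STING alters gene expression in cholestasis. Wild-type mice and STING knockout mice had each undergone either a sham operation or 7 days of bile duct ligation, in every combination. Ligation blocks the outflow of bile, and STING is the adaptor that passes on the sensing of DNA in the cytosol. The knockout allele, the strain, the age and the sex of the mice, and whether each library came from a mouse of its own, are not given in the sources used here. The p-values therefore measure the spread between these libraries. In RNA of whole tissue, fewer cells of a type and less RNA per cell cannot be told apart, which holds for every level below.

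Kupffer cells sit in the sinusoids, where they clear particles, dying cells and microbes from the blood. Clec4f is a lectin found on them and on few other cells of the mouse, Vsig4 binds complement-coated particles, Timd4 binds phosphatidylserine on dying cells, Marco is a scavenger receptor for particles and bacteria, and Cd163 takes up haemoglobin bound to haptoglobin. Cd5l, also called AIM, is secreted by tissue macrophages into the blood, the C1q chains form the recognition part of the first complement component, and Adgre1 is the macrophage antigen F4/80. Most tissue macrophages transcribe the C1q genes, so a change in these does not single out Kupffer cells. When resident Kupffer cells are lost, monocytes entering the liver can take up this programme stepwise, and Timd4 is among its late genes.

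The promoters of 4 members are shown because the results below turn on how these genes moved against one another. Clec4f served as a reference, chosen after the data had been seen. Set against it, Cd5l was lower in sham knockout without overlap, though the difference did not pass (limma adjusted p = 0.0730). C1qb and C1qc are neighbours on chromosome 4 that moved together. The sequences are RefSeq's on GRCm38.p6, 250 bases before to 50 after the transcript start, 5′ to 3′ on the gene's strand. Capitals mark 2 short motifs on either strand, the PU.1 core GAGGAA and the MAF half-site TGCTGA. PU.1, encoded by Spi1, and the MAF factors are transcription factors of macrophages.
Clec4f promoter: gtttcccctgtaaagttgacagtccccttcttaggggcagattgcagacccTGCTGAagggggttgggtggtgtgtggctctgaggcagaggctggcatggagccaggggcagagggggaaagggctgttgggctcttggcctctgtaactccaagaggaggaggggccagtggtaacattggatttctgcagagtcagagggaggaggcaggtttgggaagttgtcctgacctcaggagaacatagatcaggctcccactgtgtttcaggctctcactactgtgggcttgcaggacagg
Cd5l promoter: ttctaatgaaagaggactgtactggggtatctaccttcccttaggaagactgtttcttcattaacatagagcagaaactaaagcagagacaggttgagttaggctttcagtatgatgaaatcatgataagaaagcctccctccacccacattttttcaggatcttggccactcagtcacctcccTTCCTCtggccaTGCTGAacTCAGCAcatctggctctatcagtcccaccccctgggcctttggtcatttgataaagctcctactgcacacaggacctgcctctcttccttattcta
C1qb promoter: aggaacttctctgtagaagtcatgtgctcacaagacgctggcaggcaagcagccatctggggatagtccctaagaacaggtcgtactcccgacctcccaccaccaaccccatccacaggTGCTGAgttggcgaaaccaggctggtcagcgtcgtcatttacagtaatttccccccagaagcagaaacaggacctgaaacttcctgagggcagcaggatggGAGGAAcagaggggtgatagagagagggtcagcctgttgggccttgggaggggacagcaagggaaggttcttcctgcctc
C1qc promoter: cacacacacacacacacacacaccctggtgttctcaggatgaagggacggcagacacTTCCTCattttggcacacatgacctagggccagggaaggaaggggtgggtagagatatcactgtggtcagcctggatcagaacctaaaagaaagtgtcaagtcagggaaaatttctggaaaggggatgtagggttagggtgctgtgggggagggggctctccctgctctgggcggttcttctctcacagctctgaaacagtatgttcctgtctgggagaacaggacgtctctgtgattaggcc
The windows lie at chr6:83656067-83656366 (minus strand) for Clec4f, chr3:87357631-87357930 (plus strand) for Cd5l, chr4:136886151-136886450 (minus strand) for C1qb and chr4:136892865-136893164 (minus strand) for C1qc. Such a window was given for 8 of the 10 members, not for C1qa and Adgre1. GAGGAA or its complement stood in 5 of the 8, against 28.3% of 32851 promoters of the same length, and TGCTGA or its complement in 5 of the 8, against 19.5%. A pair of interferon response half-sites GAAA in the same direction, 2 bases apart, was in none of the 8 and in 3.44% of all promoters. The Cd5l window held a PU.1 core at -66 and 2 MAF half-sites facing each other at -54 and -46, with 2 bases between them. In C1qb the half-site was at -131 and the core at -30, in C1qc the core was at -193, and in Clec4f the half-site was at -199. These matches describe letters and say nothing of binding.

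The members lie apart in the genome except for the C1q genes, which span 18675 bases of chromosome 4 on the minus strand of GRCm38. C1qa is at chr4:136895917-136898803, C1qc at chr4:136889804-136893065 and C1qb at chr4:136880129-136886187. Clec4f (ENSMUSG00000014542) is at chr6:83644542-83656187, Cd5l (ENSMUSG00000015854) at chr3:87357881-87371073, Marco (ENSMUSG00000026390) at chr1:120474538-120505024 and Vsig4 at chrX:96247203-96293438. Timd4 is at chr11:46810800-46844332, Adgre1 at chr17:57358691-57483527 and Cd163 at chr6:124304656-124330527. No other annotated gene overlapped any of the 10.

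Between 14.9 and 20.9 M fragments per library fell in genes, as recovered from the deposited values, and each member drew between 75 fragments (the lowest library of Timd4) and 9225 (the highest of Cd5l). Without ligation, Tmem173, the gene of STING, was at 1.71 ± 0.544 FPKM in wild-type and 0.743 ± 0.189 in knockout libraries (SD, n = 5 each), a log2 difference of -0.80 that did not pass (limma adjusted p = 0.0779). After ligation it measured 3.64 ± 0.861 and 1.42 ± 0.762 FPKM (limma adjusted p = 0.00444). The part of the gene that was removed is not given, so transcript left in knockout libraries checks the labels only in part. Libraries BDL_KO_2359 and BDL_KO_2248 stood apart from the other 3 ligated knockout libraries. Results for the members that rest on them are therefore given with and without them, as are several of the list counts. Both were below the other 3 for 9 of the 10 members. Fits without the pair therefore have a narrower spread, shared by all groups, and their p-values depend on that choice. Each group held libraries with Xist and libraries with Y-linked transcripts, at 2 or 3 of each. Over the 20 libraries, 10 hepatocyte markers summed to 35072.5 to 70625.4 FPKM, where all rows together summed to 315016 to 547332 FPKM.

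All 10 members were detected in every library and passed the filter on low values. FPKM, a fragment count divided by transcript length and by sequencing depth, is a level per length, so members can be set against each other. In sham wild type the order of mean levels was Cd5l at 118, C1qa at 91.0, C1qb at 72.4, Clec4f at 71.4, C1qc at 42.2, Vsig4 at 24.5, Marco at 11.3, Adgre1 at 8.77, Timd4 at 7.47 and Cd163 at 3.79 FPKM. The ranges over the 5 libraries separated Clec4f from C1qc and C1qc from Vsig4, and all other neighbours in that order overlapped. Sham knockout had another leader: C1qa stood first at 69.9 FPKM and Cd5l, at 45.9, came after Clec4f and C1qb, and all neighbours overlapped. After ligation Cd5l led in both genotypes, at 214 FPKM in wild type and 131 in knockout, and in wild type it was apart from C1qb, the next at 140.

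After ligation in wild type, 5 of the 10 members rose and none fell, against 35.6% of 14059 tested genes called in either direction and 18.1% called higher. They were Marco, C1qb, Clec4f, Vsig4 and C1qc. The median log2 difference of the 10 was 0.78, against -0.02 over all tested genes. The libraries of 6 members did not overlap between sham and ligation, all of them higher after ligation, as in 16.6% of all tested genes. In STING knockout, ligation also raised 5 members and lowered none, against 25.1% of tested genes called and 12.3% called higher. These were Marco, Cd5l, Vsig4, C1qb and C1qc, with a median of 0.59 over the 10 against -0.01 over all genes. The knockout count rested on single libraries: Marco alone was called without BDL_KO_2365 (20.2% of tested genes called) or without BDL_KO_2370 (18.6%). Scaling to total assigned fragments left Marco and Cd5l, 2 of the 10, with 18.9% of tested genes called. The sham and ligated knockout libraries overlapped for all 10, where 5.85% of all tested genes did not overlap and were higher. Differences are on the scale of log2(FPKM + 0.5), which understates changes of low genes, from 1 limma fit of all 20 libraries, and a gene passed at a Benjamini-Hochberg adjusted p under 0.05. With values rescaled to TPM, which moved the median of all genes by 0.27 in wild type and 0.15 in knockout, 9 members rose in wild type and 4 in knockout, where 40.1% and 19.9% of tested genes were called.

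**Figure D1:**
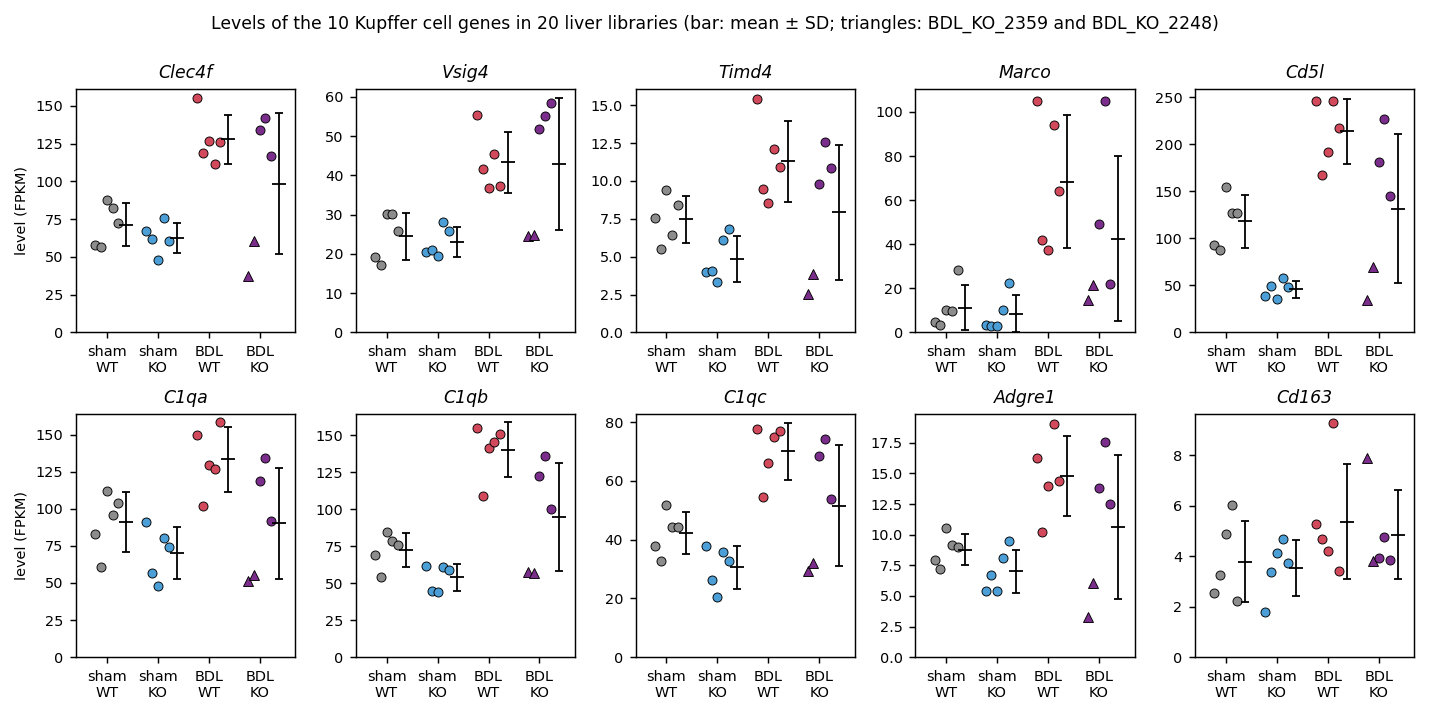
Level of each member in FPKM (vertical axis, linear, from 0) in the 20 liver libraries by group, with the mean ± SD of 5 libraries beside the points and libraries BDL_KO_2359 and BDL_KO_2248 as triangles. Both triangles sit at or near the sham knockout level in most panels, and Cd5l shows sham knockout libraries (36.0 to 58.0) below all sham wild-type libraries (87.4 to 155).

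Of the surface receptors that bind prey, Clec4f and Vsig4 rose about equally in wild type. Clec4f measured 57.9, 56.3, 87.6, 82.6 and 72.6 FPKM in sham wild type and 155, 119, 127, 112 and 126 after ligation. Every ligated wild-type library was above every sham one, a difference of 0.85 ± 0.28 log2 units (SE, limma adjusted p = 0.0223). In knockout the sham libraries gave 66.9, 61.6, 47.9, 75.5 and 60.8 FPKM and the ligated ones 60.6, 134, 37.6, 142 and 117. Of the ligated knockout libraries 3 were above all sham knockout libraries and 2 were not, and the difference of 0.50 ± 0.28 did not pass (adjusted p = 0.203). Vsig4 lay between 17.3 and 30.1 FPKM in sham wild type and between 36.7 and 55.5 after ligation, without overlap, and rose by 0.83 ± 0.24 log2 units (limma adjusted p = 0.0105). In knockout it went from 19.5 to 28.2 FPKM in sham to 24.6 to 58.5 after ligation, and rose by 0.80 ± 0.24 (limma adjusted p = 0.0198). Timd4, the late gene of the programme, measured 5.48 to 9.43 FPKM in sham wild type and 8.55 to 15.4 after ligation, and its difference of 0.56 ± 0.32 did not pass (adjusted p = 0.195). Its knockout values were 3.32 to 6.82 in sham and 2.53 to 12.5 after ligation, with a difference of 0.48 (adjusted p = 0.293).

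Marco had the largest differences among the 10 in both genotypes. In sham wild type it measured 4.58, 3.58, 10.1, 9.80 and 28.5 FPKM, and after ligation 105, 41.7, 37.5, 94.1 and 64.0. The groups did not overlap, though the sham library Sham_Wt_2229, at 28.5, came near the lowest ligated one. The rise was 2.79 ± 0.61 log2 units (limma adjusted p = 0.00163), or 6.91-fold. In knockout, Marco measured 3.33, 3.10, 2.95, 10.3 and 22.4 FPKM in sham and 21.7, 49.0, 14.9, 105 and 22.1 after ligation. The high sham library Sham_KO_2353 overlapped the ligated libraries, and the rise was 2.35 ± 0.61 log2 units (limma adjusted p = 0.00939), or 5.10-fold.

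The sham levels of Marco followed the type of library in both genotypes. The 5 sham libraries with Y-linked transcripts held 2.95 to 4.58 FPKM and the 5 with Xist 9.80 to 28.5. Vsig4, which is on the X chromosome, was also apart, at 17.3 to 20.9 against 25.8 to 30.1 FPKM, and so was Adgre1, at 5.40 to 7.95 against 8.06 to 10.5. These 3 members were higher in Xist libraries of the sham groups without overlap, as were 2.36% of all tested genes. After ligation the types overlapped for all 3, with Marco at 21.7 to 105 FPKM in Y libraries and 14.9 to 105 in Xist libraries. The difference of Marco after ligation thus varied with library type. In Y libraries alone it was 3.60 log2 units in wild type and 3.19 in knockout. In Xist libraries alone it was 2.41 and 1.08, and passed in neither genotype. With library type as a term of the fit, the coefficient of Marco was 1.08 ± 0.38 log2 units (limma adjusted p = 0.203), and no member passed for library type, where 1.92% of tested genes did.

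**Figure D2:**
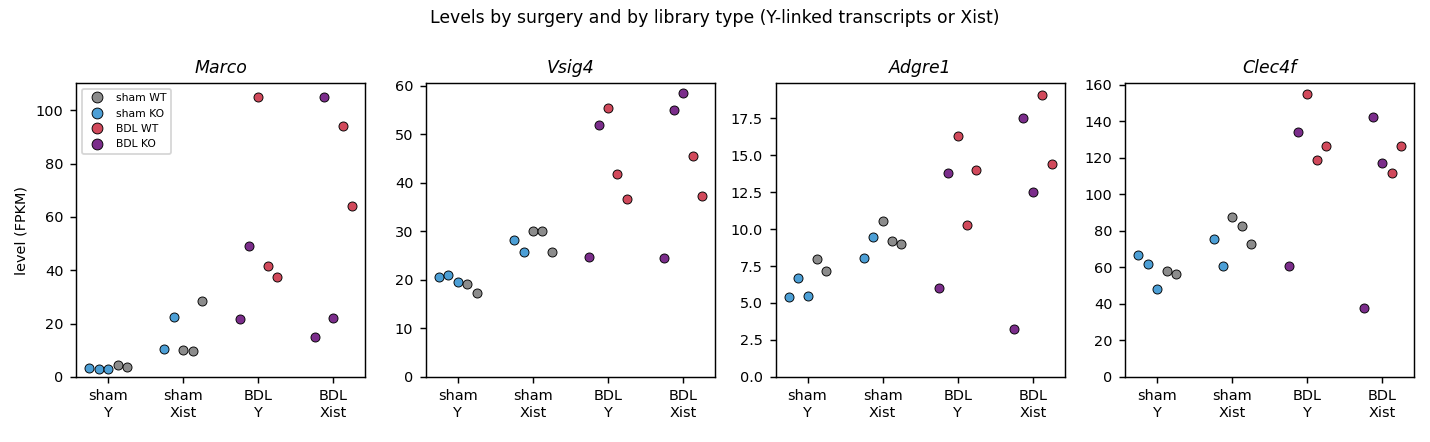
Levels of Marco, Vsig4, Adgre1 and, for comparison, Clec4f in FPKM (vertical axis, linear, from 0) by surgery and by library type, 5 libraries in each column, coloured by group. In the sham columns Marco, Vsig4 and Adgre1 are higher in Xist libraries without overlap (Marco 9.80 to 28.5 against 2.95 to 4.58), while the BDL columns overlap.

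The chains of C1q moved together from library to library. C1qb measured 69.2, 54.1, 84.5, 78.4 and 75.7 FPKM in sham wild type and 155, 109, 141, 146 and 151 after ligation. All ligated libraries were above all sham ones, a rise of 0.95 ± 0.22 log2 units (limma adjusted p = 0.00217). In knockout C1qb measured 61.8, 44.5, 43.7, 60.7 and 58.7 FPKM in sham and 57.1, 123, 57.3, 136 and 99.9 after ligation, and rose by 0.73 ± 0.22 (limma adjusted p = 0.0201). C1qc rose by 0.73 ± 0.23 in wild type, from a range of 32.7 to 51.6 to one of 54.6 to 77.7 FPKM (limma adjusted p = 0.0204), and by 0.68 ± 0.23 in knockout (limma adjusted p = 0.0401). C1qa, the most abundant chain transcript in sham livers, measured 60.8 to 112 FPKM in sham wild type and 102 to 158 after ligation, which overlapped, and its differences of 0.56 in wild type and 0.30 in knockout did not pass (adjusted p = 0.0938 and 0.422).

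Within a library, the ratio of C1qb to C1qa differed between sham and ligated livers. It was 0.805 ± 0.0640 in sham wild type and 1.06 ± 0.0715 in ligated wild type (SD, n = 5), with ranges of 0.730 to 0.890 and 0.952 to 1.14. In knockout it was 0.786 ± 0.0861 in sham and 1.06 ± 0.0451 after ligation, with ranges of 0.678 to 0.917 and 1.01 to 1.12. The ratio thus separated the surgeries in both genotypes, also in BDL_KO_2359 and BDL_KO_2248, whose levels of both chains were near sham. Among all tested genes set against C1qa, 4.73% separated in this direction in wild type and 2.11% in knockout. The ratio of C1qc to C1qa was 0.428 to 0.537 in sham and 0.485 to 0.589 in ligated wild type, which overlapped, and 0.416 to 0.461 against 0.553 to 0.588 in knockout, which did not.

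Cd5l was the member that differed between the genotypes in sham livers. It measured 92.9, 87.4, 155, 127 and 127 FPKM in the wild-type libraries and 38.4, 48.9, 36.0, 58.0 and 48.5 in the knockout ones. Every knockout library was below every wild-type library, as held in the same direction for 4.58% of tested genes. The log2 difference was -1.34 ± 0.36 (limma adjusted p = 0.0499), which made Cd5l the 1 member of 10 to pass, against 2.97% of tested genes called and 1.66% called lower. This adjusted p was close to the threshold and passed it in 9 of 34 other settings, with a log2 difference of -1.48 to -1.14 in all 34. In a fit that leaves out BDL_KO_2359 and BDL_KO_2248 the same difference had a standard error of 0.18 and an adjusted p of 0.000404. No sham value changes in that fit. Its spread is narrower because libraries low for Cd5l itself were left out, so it is not an independent test. With only the 2 sham groups in the fit the adjusted p was 0.00247. The other 9 members had differences of -0.59 (Timd4) to -0.06 (Cd163) that did not pass, and the median of all 10 was -0.40 against 0.01 over all genes. In the same sham groups 10 monocyte markers summed to 7.86 to 14.9 FPKM in wild type and 3.90 to 7.16 in knockout, and 10 general macrophage and leukocyte genes to 169 to 270 and 140 to 205, and their part in the difference of Cd5l was not tested.

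After ligation Cd5l measured 246, 168, 192, 246 and 217 FPKM in wild type and 69.8, 181, 34.4, 227 and 145 in knockout. In wild type the ligated libraries were all above the sham ones, with a difference of 0.87 ± 0.36 log2 units that did not pass in the fit of 20 libraries (limma adjusted p = 0.0676). In knockout Cd5l rose by 1.24 ± 0.36 (limma adjusted p = 0.0175), with BDL_KO_2248 at 34.4 below all 5 sham knockout libraries. Between the ligated groups the difference was -0.97 (limma adjusted p = 0.0973). The interaction, which asks whether the response to ligation differed between genotypes, was 0.37 for Cd5l and did not pass. Leaving out BDL_KO_2359 and BDL_KO_2248, the interaction of Cd5l was 1.12 ± 0.27 (limma adjusted p = 0.0527).

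Set against Clec4f within each library, Cd5l was again lower in sham knockout, without overlap. The ratio of Cd5l to Clec4f was 1.64 ± 0.110 in sham wild type, with a range of 1.54 to 1.77, while sham knockout had 0.737 ± 0.0933, with a range of 0.573 to 0.798 (SD, n = 5). After ligation it was 1.69 ± 0.308 in wild type and 1.25 ± 0.251 in knockout, with ranges of 1.41 to 2.20 and 0.917 to 1.60 that overlapped. Of all tested genes set against Clec4f, 1.81% were lower in sham knockout without overlap. In a limma fit of values relative to Clec4f the sham difference of Cd5l was -1.16 ± 0.27 log2 units and did not pass (adjusted p = 0.0730, where 0.149% of genes were called lower). Its adjusted p was 0.000434 without BDL_KO_2359 and BDL_KO_2248, which were left out for their low member levels, so this is not an independent test. This reference was chosen after the data had been seen.

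**Figure D3:**
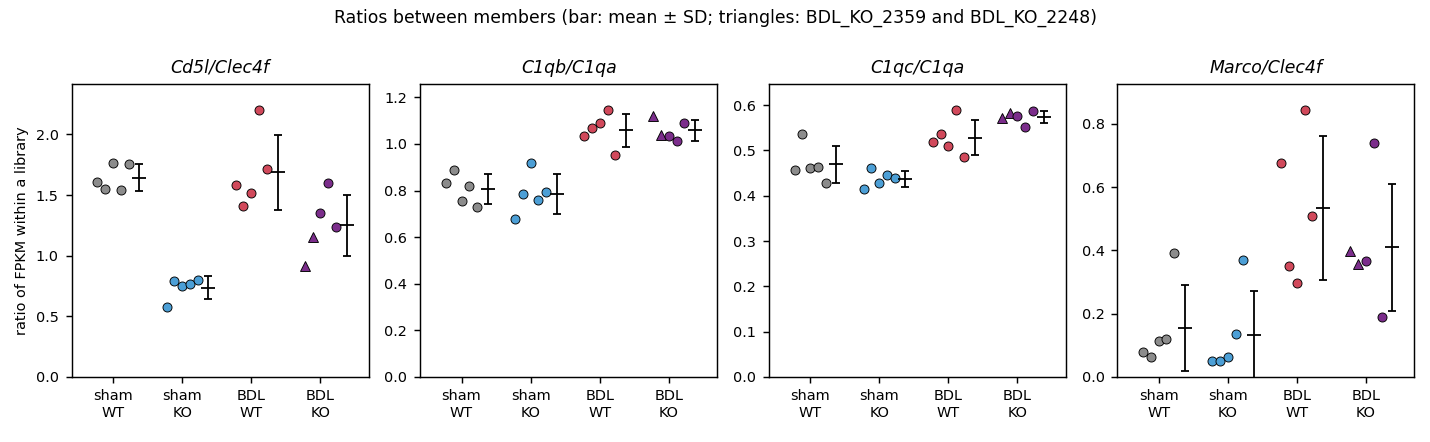
Ratios of FPKM between members within each library (vertical axis, linear, from 0) by group, with the mean ± SD of 5 libraries and libraries BDL_KO_2359 and BDL_KO_2248 as triangles. Cd5l to Clec4f is 0.573 to 0.798 in sham knockout against 1.54 to 1.77 in sham wild type, and C1qb to C1qa is higher in all ligated than in all sham libraries of the same genotype.

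Adgre1 and Cd163 did not pass in any of the 4 comparisons of 2 groups in the fit of all 20 libraries. For ligation, Adgre1 passed in 4 of 34 other settings in wild type and 2 of 34 in knockout. Cd163 passed in 1 of 34 in wild type. Adgre1, the F4/80 antigen, measured 7.17 to 10.5 FPKM in sham and 10.2 to 19.1 in ligated wild type, with a difference of 0.71 ± 0.31 log2 units (adjusted p = 0.0863), and 5.40 to 9.48 against 3.27 to 17.5 in knockout, with a difference of 0.39 (adjusted p = 0.391). Cd163 was the lowest of the 10 in every group, at 2.22 to 6.01 FPKM in sham and 3.43 to 9.26 in ligated wild type (difference 0.46, adjusted p = 0.220). Its knockout ranges were 1.78 to 4.68 and 3.82 to 7.91 FPKM (difference 0.41, adjusted p = 0.308).

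Between the genotypes after ligation, no member passed in limma, against 8.83% of tested genes called. C1qb was called lower with TPM (13.3% of tested genes called) and with library type as a covariate (9.94%). Without BDL_KO_2365, Cd5l and C1qb were called lower (12.9% of tested genes called), and without BDL_KO_2370, Cd5l, C1qa and C1qb were (14.7%). In the fit of all 20 libraries the 10 differences were all negative, with a median of -0.65 against 0.01 over all genes, and 4 had an unadjusted p under 0.05, namely Cd5l, C1qa, C1qb and C1qc. The difference of C1qb was -0.65 (adjusted p = 0.0686), that of C1qa -0.65 (adjusted p = 0.116) and that of Marco -0.93 (adjusted p = 0.377). Without BDL_KO_2359 and BDL_KO_2248 the 10 differences lay between -0.37 (Marco) and 0.36 (Vsig4), and none had an unadjusted p under 0.05. With all 20 libraries the interaction passed for none of the 10 in limma, and none had an unadjusted p under 0.05, against 0.377% of tested genes called. With the pair left out it also passed for none, where 1.27% of tested genes were called, but Cd5l had an unadjusted p of 0.000727 (limma adjusted p = 0.0527). The responses in wild type and in knockout were thus not shown to differ for any member at an adjusted p of 0.05 in either fit.

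**Figure D4:**
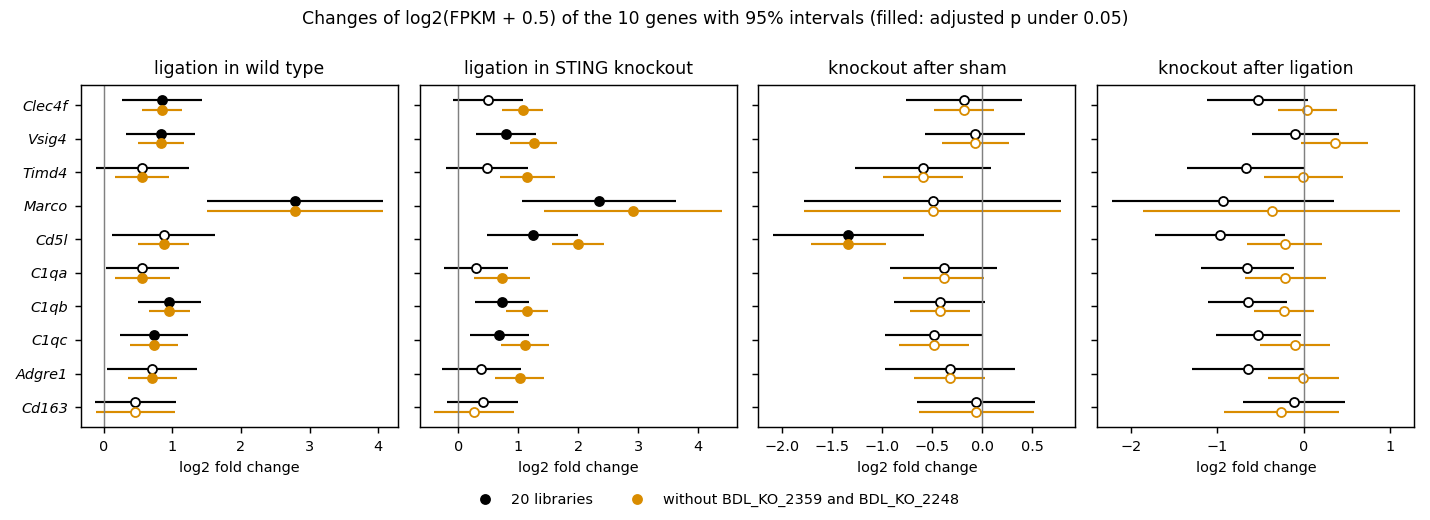
Differences of log2(FPKM + 0.5) for each member in 4 comparisons (horizontal axis, log2 units), with 95% intervals from limma on all 20 libraries (black) and without BDL_KO_2359 and BDL_KO_2248 (orange). Filled points passed an adjusted p of 0.05: 5 members in each ligation comparison with all libraries and 9 in each without the pair, and Cd5l in sham knockout.

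BDL_KO_2359 and BDL_KO_2248 were below the other 3 ligated knockout libraries for 9 of the 10 members. Clec4f, for example, was at 60.6 and 37.6 FPKM in the pair against 117 to 142 in the others, and Timd4 at 3.87 and 2.53 against 9.77 to 12.5. Marco was at 21.7 and 14.9 against 22.1 to 105, where the gap was small. The exception was Cd163, at 3.82 in BDL_KO_2359, under the range of 3.84 to 4.77 in the others, and at 7.91 in BDL_KO_2248, above it. Without the pair, 9 of 10 members rose after ligation in knockout and 9 of 10 in wild type, all but Cd163 in both, where 37.0% and 42.2% of tested genes were called. In knockout these rises were 1.07 ± 0.16 log2 units for Clec4f (limma adjusted p = 9.69e-05), 1.15 ± 0.22 for Timd4 (limma adjusted p = 0.000627), 1.02 ± 0.19 for Adgre1 (limma adjusted p = 0.000627) and 0.73 ± 0.22 for C1qa (limma adjusted p = 0.0155). As the pair was low for 9 of the 10 members, leaving it out raises their knockout means and narrows the spread. These adjusted p-values thus depend on the member levels themselves and are not an independent test. With all 5 libraries, but only the 2 groups compared in the fit, 9 members rose in wild type, where 44.2% of tested genes were called, and only Marco in knockout, where 12.0% were.

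Other genes moved with this pair. The summed level of 10 hepatocyte markers was 56881 to 70625 FPKM in the pair and 38983 to 45635 in the other 3. All rows together also summed to more in the pair, 480917 and 524471 FPKM against 332878 to 361980. As a share of that sum the hepatocyte markers held 11.8% and 13.5% in the pair and 11.7% to 12.6% in the others, which overlapped. The 10 members held 0.0501% to 0.0696% in the pair and 0.170% to 0.259% in the others, which did not overlap. Summed FPKM in the pair and in the others were 36.6 to 45.0 and 67.5 to 77.8 over 10 sinusoidal endothelial markers, 10.3 to 11.7 and 16.1 to 36.8 over 10 monocyte markers, and 134 to 199 and 402 to 545 over 10 general macrophage and leukocyte markers. The part of these differences in the member levels was not tested.

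To see which members moved beyond the C1q genes, the mean log2 level of the 3 chains was subtracted in each library. Of the 7 other members Marco alone rose, by 2.04 ± 0.48 in wild type (limma adjusted p = 0.00247) and by 1.78 ± 0.48 in knockout (limma adjusted p = 0.0131). On this scale 60.4% of all genes were called in wild type and 2.85% were called higher. In knockout 28.5% were called and 1.15% were called higher. Clec4f, Vsig4, Timd4, Adgre1 and Cd163 did not pass on this scale, and Cd5l in knockout, at 0.67, had an adjusted p of 0.0639. In knockout, Cd5l passed too once BDL_KO_2359 and BDL_KO_2248 were left out. Relative to Clec4f, Marco also rose, by 1.94 ± 0.49 in wild type (limma adjusted p = 0.00400) and 1.86 ± 0.49 in knockout (limma adjusted p = 0.0207), where 2.13% and 0.854% of genes were called higher.

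Library by library within the groups, 9 of the members went up and down together, and Cd163 was apart from them when all libraries were used. After each group's mean was subtracted, Pearson's r of the 36 pairs without Cd163 lay between 0.55 and 0.98 over 20 libraries, and between 0.48 and 0.96 over 18 without BDL_KO_2359 and BDL_KO_2248. The 9 pairs with Cd163 lay between -0.23 and 0.13, or between -0.10 and 0.53 without the pair. The separation of Cd163 thus rested in part on the pair: without it, r of Cd163 with Vsig4 and Adgre1 was 0.53 each and with Cd5l 0.49, within the range of the other pairs. The genes most like Clec4f were Sdc3 (r = 0.96), Ckb (0.96), Cd5l (0.95), Cyba (0.95) and Cd68 (0.94), at 0.81, 0.77, 0.77, 0.77 and 0.72 without the pair. Those most like C1qb were C1qc (0.97), C1qa (0.97), Was (0.95), Cyba (0.94) and Evl (0.94), and without the pair 0.95, 0.96, 0.87, 0.94 and 0.83. Timd4 went most closely with Adgre1 (0.94), Adgre4 (0.94), Rac2 (0.93), Rassf4 (0.93) and Ptgs1 (0.93), at 0.76 to 0.80 without the pair. These values are descriptions across libraries that share scaling and depth.

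Other surface and secreted genes of Kupffer cells were set beside the members. Of 11 tested, 3 rose after ligation in wild type and 4 in knockout, and none fell, where 18.1% and 12.3% of all tested genes were called higher. Fabp7, a fatty acid binding protein, rose by 1.59 ± 0.27 log2 units in wild type and 1.44 ± 0.27 in knockout, and Cd38, an ectoenzyme that consumes NAD, by 0.63 ± 0.13 and 0.47 ± 0.13. Il18bp, a secreted protein that binds IL-18, rose by 0.70 ± 0.19 in wild type and 1.17 ± 0.19 in knockout. Like Cd5l it was lower in sham knockout, by a difference of -1.26 ± 0.19 (limma adjusted p = 0.00194), and it was also lower in ligated knockout (-0.79, limma adjusted p = 0.0147). Without BDL_KO_2359 and BDL_KO_2248, Il18bp and the rest of the 11 were not called lower in ligated knockout. In that fit 2 of the 11 were called higher there, against 3.24% of tested genes. After ligation, 6 of the 11 rose in wild type and 10 in knockout without that pair, where 21.5% and 18.8% of all tested genes were called higher.

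Of 10 transcription factors of the Kupffer programme, 2 rose and 2 fell after ligation in wild type. These counts were near the shares of all tested genes, 18.1% called higher and 17.5% lower. Spi1 (1.14 ± 0.28) and Irf8 (0.92 ± 0.20) rose in ligated wild type, and Nr1h3 (-0.28 ± 0.10), the gene of LXRα, and Rxra (-0.34 ± 0.12), its partner, fell. In knockout only Nr1h3 passed (-0.28 ± 0.10), where 12.3% of tested genes were called higher and 12.9% lower. Between the ligated groups Spi1 (-0.91, limma adjusted p = 0.0493) and Irf8 (-0.75, limma adjusted p = 0.0243) were lower in knockout. Without BDL_KO_2359 and BDL_KO_2248, no factor of the list was called lower in ligated knockout than in ligated wild type. After ligation that fit called 3 of the 10 higher and 2 lower in wild type, and 3 higher and 1 lower in knockout. Of all tested genes it called 21.5% higher and 20.7% lower in wild type, and 18.8% and 18.2% in knockout. Spi1 and Irf8 also act in monocytes, and Nr1h3 and Rxra are also expressed in hepatocytes.

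Of 16 tested signals of the Kupffer cell niche, 5 rose and 3 fell in wild type, and 4 rose and 3 fell in knockout. Over all tested genes, 18.1% were called higher and 17.5% lower in wild type, and 12.3% and 12.9% in knockout. Csf1, the growth factor of macrophages, rose by 1.32 ± 0.18 in wild type and 1.13 ± 0.18 in knockout, and its receptor Csf1r by 1.04 ± 0.28 in wild type. The TGF-β receptor gene Tgfbr2 rose by 1.18 ± 0.15 and 1.13 ± 0.15. The BMP co-receptor gene Eng fell by 0.87 and 0.75 on the log2 scale in wild type and knockout, Bmp10 by 0.80 and 0.62, and Dll4, a Notch ligand of sinusoidal endothelium, by 0.76 and 0.60. Csf1 was lower in ligated knockout than in ligated wild type (-0.77 ± 0.18, limma adjusted p = 0.0123). Without BDL_KO_2359 and BDL_KO_2248, Csf1 and the rest of the 16 were not called lower there. In that fit 2 of the 16 were called higher, against 3.24% of tested genes. After ligation the same fit called 8 of the 16 higher and 4 lower in wild type, and 8 higher and 1 lower in knockout. Of all tested genes it called 21.5% higher and 20.7% lower in wild type, and 18.8% and 18.2% in knockout. Of 8 target genes of LXR, 1 rose and 5 fell in wild type, and 2 rose and 1 fell in knockout. Abcg1, a cholesterol exporter of macrophages, rose by 1.17 ± 0.29 and 1.31 ± 0.29, while Abcg8 and Abcg5, the sterol exporters of hepatocytes, fell by 2.32 and 1.69 in wild type. Srebf1 fell by 1.09 in wild type and rose by 1.45 ± 0.29 in knockout.

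Genes that act beside the members in complement, uptake and haem handling are given here. For comparison, 18.1% of all tested genes were called higher and 17.5% lower in wild type, and 12.3% and 12.9% in knockout. Among 6 tested partners of C1q and early complement genes, 3 rose in wild type, C3 by 1.18 ± 0.25, C1s1 by 0.39 ± 0.13 and C2 by 0.31 ± 0.10, and in knockout C3 and C4b rose. Of 10 other phagocytic receptors and bridging proteins, 7 rose and 1 fell in wild type and 5 rose and 1 fell in knockout. Mfge8, which bridges phosphatidylserine to integrins, rose by 3.96 ± 0.42 and 2.47 ± 0.42, and Cd36 by 1.66 ± 0.26 and 1.56 ± 0.26. Timd2, of the same gene family as Timd4, fell by 0.78 and 0.39. Of 7 scavenger receptors, 4 rose and 1 fell in wild type and 3 rose in knockout. Scara5, of Marco's class, rose by 2.89 ± 0.64 in wild type and measured 1.13 ± 0.64 in knockout, which did not pass (adjusted p = 0.209). Among 9 genes of haemoglobin and haem handling, the pathway Cd163 feeds, 4 rose and 1 fell in wild type and 5 rose in knockout. Hp, the haptoglobin whose complex Cd163 takes up, rose by 1.84 ± 0.27 and 2.10 ± 0.27, and Hmox1, haem oxygenase, by 1.79 ± 0.25 and 1.53 ± 0.25. Cd163 itself did not pass.

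Markers of other cells moved alongside the members. After ligation, 18.1% of all tested genes were called higher and 17.5% lower in wild type, and 12.3% and 12.9% in knockout. Of 8 tested monocyte markers all rose in wild type and 6 in knockout, with Chil3 at 4.37 ± 0.47 and 3.15 ± 0.47 and Ccr2 at 2.43 ± 0.31 and 1.36 ± 0.31. Their list summed to 7.86 to 14.9 FPKM in sham wild type, 3.90 to 7.16 in sham knockout, 55.2 to 75.3 in ligated wild type and 10.3 to 36.8 in ligated knockout. Between the ligated groups, 6 of the 8 were lower in knockout, where 5.37% of tested genes were called lower, and 4 without BDL_KO_2359 and BDL_KO_2248, where 3.36% were. The members summed to 328 to 556, 231 to 367, 659 to 981 and 263 to 909 FPKM in the same order, so that the 2 ligated groups were apart for monocyte markers and overlapped for the members. Of 8 markers of lipid-associated macrophages, which also express several general macrophage genes, 7 rose and Fabp5 fell in wild type, and 6 rose in knockout, Spp1 by 4.15 ± 0.47 and 2.93 ± 0.47 and Gpnmb by 2.58 ± 0.27 and 1.26 ± 0.27. Spp1 is also made by bile duct cells. General macrophage and leukocyte genes rose in 9 of 10 in wild type and 5 of 10 in knockout, tested neutrophil markers in 4 of 4 and 3 of 4. Sinusoidal endothelial markers fell in 8 of 10 and 6 of 10, and hepatocyte markers in 4 of 10 and 3 of 10, with Hpx rising in both genotypes. Without BDL_KO_2359 and BDL_KO_2248, general macrophage and leukocyte genes rose in 9 of 10 in wild type and 10 of 10 in knockout. Sinusoidal endothelial markers then fell in 8 of 10 and 4 of 10, and 1 rose in knockout. Of all tested genes that fit called 21.5% higher and 20.7% lower in wild type, and 18.8% and 18.2% in knockout. The part of these cells in the levels of the members was not tested.

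**Figure D5:**
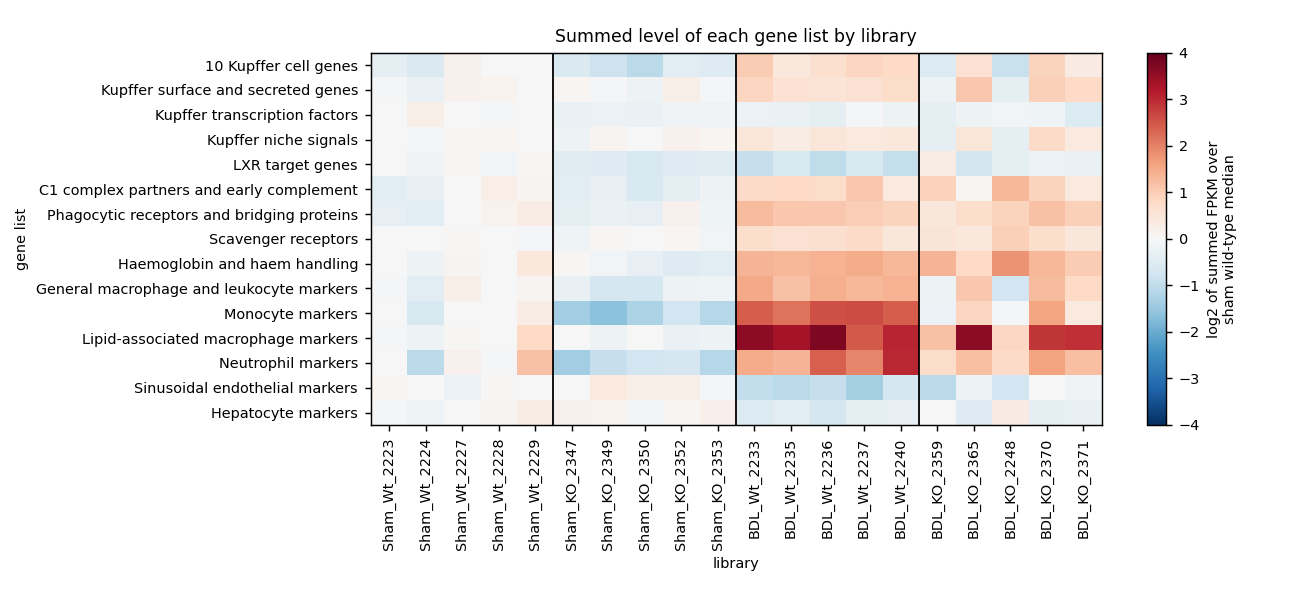
Summed FPKM of each gene list in each library, as log2 of the ratio to the median of the 5 sham wild-type libraries (colour, from -4 to 4), with black lines between the groups of 5 libraries. The row of the 10 Kupffer cell genes is raised in ligated wild type and in 3 of 5 ligated knockout libraries, while the monocyte row is high mainly in ligated wild type (55.2 to 75.3 FPKM).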

How the data were processed

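Polyadenylated liver RNA of 20 libraries in 4 groups of 5 was read as FPKM values, which the authors computed and deposited as 1 table. Per the submitters' processing notes, the tools were HISAT2 2.0.5, featureCounts 1.5.0-p3, DESeq2 1.20.0, fastp and CASAVA 1.8, the builds were mm10 and GRCm38, and the annotation release and strand setting are not given in the sources used here. The sample titles gave the groups. The 10 members and all lists were chosen with earlier results of these data known. The members, Tmem173, up to 4 called genes of each list and the 5 genes most like Clec4f, Timd4 and C1qb were named, and Abcb4-deficient mice were not analysed here.

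FPKM times exonic length (GENCODE M21) was a whole multiple of a library's step, within 0.02, for 98.2 to 98.5% of low values, which gave fragments per gene. The library size implied by the scaling differed from the assigned fragments, which came to 86.9 to 134% of it, so the deposited values carry a scaling between libraries and are not plain FPKM of assigned fragments. Values were taken as log2(FPKM + 0.5). A gene was tested where 5 or more of the 20 libraries reached 0.5 FPKM (14059 genes), by limma 3.58.1 in R 4.3.3 with 1 mean for each group, trended variances and robust moderation. Benjamini-Hochberg adjustment ran over all tested genes, with a threshold of 0.05. The fit was tested on simulated data with 200 changed genes. Other settings were pseudocounts, filters, TPM, median-ratio scaling, voom on recovered fragments, the 2 groups compared alone, moderation without robust estimation, library type as a covariate and each library left out. Scaling to total fragments, each library type alone, values relative to Clec4f and shares of the summed FPKM were chosen after seeing the data. Files were read and figures drawn in Python 3.11.15 (matplotlib 3.10.9, numpy 2.4.6, pandas 2.3.3).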

Additional observations from a re-analysis of the deposited data

Results flagged for a closer look

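Of 40 groups of 5 libraries examined for the 10 members, 2 had a library far from the other 4, and chance gives about 1 in 20. Marco in sham wild type was at 28.5 FPKM in Sham_Wt_2229, where the other 4 libraries lay between 3.58 and 10.1. Cd163 in ligated STING knockout was at 7.91 FPKM in BDL_KO_2248, where the other 4 lay between 3.82 and 4.77, while Clec4f in that library was at 37.6, the lowest of its group.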

How the results depend on the processing

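No difference of a member reversed among those that passed. With each library left out in turn, the number of members called was 3 to 7 for ligation in wild type (3 without Sham_Wt_2224), 1 to 8 for ligation in STING knockout (1 without BDL_KO_2365 or BDL_KO_2370, 3 without Sham_KO_2350 or BDL_KO_2371, 8 without BDL_KO_2248), 0 to 1 for knockout after sham and 0 to 3 for knockout after ligation (2 without BDL_KO_2365, Cd5l and C1qb, and 3 without BDL_KO_2370, with C1qa too). Relative to the C1q genes it was 1 in wild type throughout and 0 to 2 in knockout (2 without BDL_KO_2359 or BDL_KO_2248, 0 without BDL_KO_2370). For ligation in wild type, 9 were called with TPM, with a fit of the compared groups alone and without BDL_KO_2359 and BDL_KO_2248, and 0 in Xist libraries alone. For ligation in knockout, 1 was called with the compared groups alone, 9 without the pair, 2 with total fragments, 2 in Y libraries alone and 0 in Xist libraries alone. The sham call of Cd5l gave 0 under pseudocounts of 0.1 and 1, no filter, TPM, median ratios, library type as a covariate, total fragments and either library type alone. For knockout after ligation, 1 was called (C1qb, lower) with TPM and with library type as a covariate. Relative to the C1q genes, Xist libraries alone gave 0 in both genotypes, and leaving out the pair gave 2 in knockout. Tests within 1 library type had 2 or 3 libraries a group and many fewer degrees of freedom. In Xist libraries alone the difference of Marco in knockout was also smaller, 1.08 log2 units against 2.35 with all 20 libraries. The cause of all these changes was not tested. No paired analysis was possible because the titles give each library a number of its own.

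Members held at least 75 fragments in every library, so counting error was small beside the spread between libraries. The 2 ligated knockout libraries that stood apart limit every comparison with that group, and the sham call of Cd5l was near its threshold. The unstated allele, strain and annotation limit what genotype differences refer to.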
